A study of Mus musculus with 24 samples.

Results

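The genes described here are the BET bromodomain genes Brd2 and Brd3, the genes of the kinase P-TEFb (Cdk9, Ccnt1, Ccnt2), those of its 7SK inhibitory complex (Hexim1, Larp7, Mepce) and the scaffold gene Aff4. They were taken by symbol from the deposited expression tables, and all 9 were found among the 26636 genes listed once and among the 13801 genes tested. The cells were neural progenitor cells of the cortex of C57BL/6 mouse embryos at embryonic day 12, grown in B27 supplement with the growth factor bFGF up to passage 3. They were kept in differentiation medium with (+)-JQ1, or with its mirror image (-)-JQ1, which served as the inactive control compound, at 0.2 or 0.5 µM for 12 or 24 h. Each of the 8 combinations of enantiomer, dose and time had 3 libraries from independent cell preparations, 24 libraries in all. All groups therefore shared the culture medium, and none was left without a JQ1 enantiomer. The title of the series concerns neuron and glia formation when BET bromodomains are blocked.

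BET proteins read acetylated histones through paired bromodomains and help to bring P-TEFb to chromatin. P-TEFb is the kinase CDK9 with a T-type cyclin, and it phosphorylates RNA polymerase II and pausing factors so that a paused polymerase moves into the gene body. In most cells a share of P-TEFb is held inactive on the noncoding 7SK RNA, where HEXIM1 blocks the kinase, MEPCE caps the RNA and LARP7 holds its end. AFF4 is the scaffold of the super elongation complex, which carries active P-TEFb. (+)-JQ1 fills the acetyl-lysine pocket of BET bromodomains, and HEXIM1 RNA is widely used as a pharmacodynamic marker of BET inhibitors.

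Values are FPKM, read fragments scaled to transcript length and to the number of mapped reads, so levels can be compared between genes, but the number of reads behind them is unknown. FPKM summed to between 431766 and 870653 per library, with a median of 471983, and 16953 to 18201 genes were above 0. In 2 libraries the short RNA gene Mir5105 took 42.7% and 46.9% of the summed FPKM, against at most 6.69% in the other 22. They are replicate 2 of (+)-JQ1 and replicate 1 of (-)-JQ1, both at 0.2 µM and 24 h, and the log2 difference of each member in that comparison is also given without them. All 8 progenitor markers averaged at least 1 FPKM, as did all 8 oligodendrocyte lineage markers, all 6 astrocyte markers and all 6 neuronal markers found. None of the 6 microglial and none of the 4 erythroid markers did, and Aif1, Hba-a1 and Hbb-b1 were at 0 in every library. Of 5 endothelial markers, Kdr averaged 2.15 FPKM, the others were under 1 FPKM, and Cdh5 and Cldn5 were at 0 in every library. Of 6 pericyte and fibroblast markers, Pdgfrb averaged 1.72 FPKM and the others were under 1 FPKM. Summed, the endothelial markers had medians of 1.11 FPKM with (+)-JQ1 (0.512 to 2.55) and 3.07 with (-)-JQ1 (0.719 to 6.62), and the pericyte and fibroblast markers 2.18 with (+)-JQ1 (1.58 to 3.41) and 6.10 with (-)-JQ1 (4.04 to 10.3). The summed progenitor markers had a median of 5168 FPKM over the 12 (+)-JQ1 libraries (range 4023 to 7060) and 3329 over the 12 (-)-JQ1 libraries (range 2828 to 5085). The summed neuronal markers had medians of 192 FPKM with (+)-JQ1 (124 to 270) and 125 with (-)-JQ1 (105 to 198). For the oligodendrocyte lineage the medians were 757 FPKM with (+)-JQ1 (415 to 1192) and 1576 with (-)-JQ1 (1480 to 2103), and for astrocytes 490 with (+)-JQ1 (291 to 654) and 974 with (-)-JQ1 (681 to 1288). Most of the progenitor sum came from Fabp7 and Vim, which averaged 2528 and 1386 FPKM over the 24 libraries. Most of the neuronal sum came from Tubb3, at 118 FPKM. These 2 sums therefore need not show the direction of the other markers in them. The part of these differences between marker sums in the values below was not tested, and fewer cells of a type cannot be told apart from less RNA per cell.

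Hexim1 was the member that differed most between the enantiomers, at 2.53 to 3.82 times its (-)-JQ1 level over the conditions, and Brd2 and Mepce were the other members called higher with (+)-JQ1 in all 4 comparisons. Calls rest on limma, with p adjusted by Benjamini and Hochberg's method across the whole table and a threshold of 0.05. Of the 9 members, these 3 were higher and 0 lower at 0.2 µM and 12 h, where 27.9% of all genes were called, 8.23% higher and 19.6% lower. With 0.5 µM for 12 h the same 3 were higher and 0 lower, where 38.3% of genes were called, 12.2% higher and 26.1% lower. With 0.2 µM for 24 h Ccnt2 and Aff4 were also higher, which made 5, and Larp7 was lower, where 32.8% of genes were called, 11% higher and 21.8% lower. With 0.5 µM for 24 h Cdk9 joined the 3, which made 4 higher and 0 lower, where 38.2% of genes were called, 13.7% higher and 24.5% lower. Where 0 were lower, Larp7 had a negative difference with an unadjusted p under 0.05 in limma at 0.2 µM and 12 h, and no member had one at 0.5 µM. Fitted on the 6 libraries at 0.2 µM and 24 h alone, 2 members were called there in place of 6, Hexim1 and Brd2. The share of all genes called in that fit was not taken. In the number of calls the members thus lay near the background at 12 h and at 0.5 µM, and the calls were mostly of genes higher with (+)-JQ1, while most calls over all genes were lower. The median log2 change of the 9 members was 0.16, 0.24, 0.32 and 0.30 in these 4 comparisons, in the order given, and that of all genes was -0.07, -0.10, -0.07 and -0.05. With the effect averaged over doses and times in the same fit, 6 members were higher (Hexim1, Brd2, Mepce, Ccnt2, Aff4 and Cdk9), 2 were lower (Larp7 and Brd3) and Ccnt1 was not called. That average was added after the separate comparisons were seen, and it called 61.3% of all genes, 23.1% higher and 38.2% lower.

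**Figure D1:**
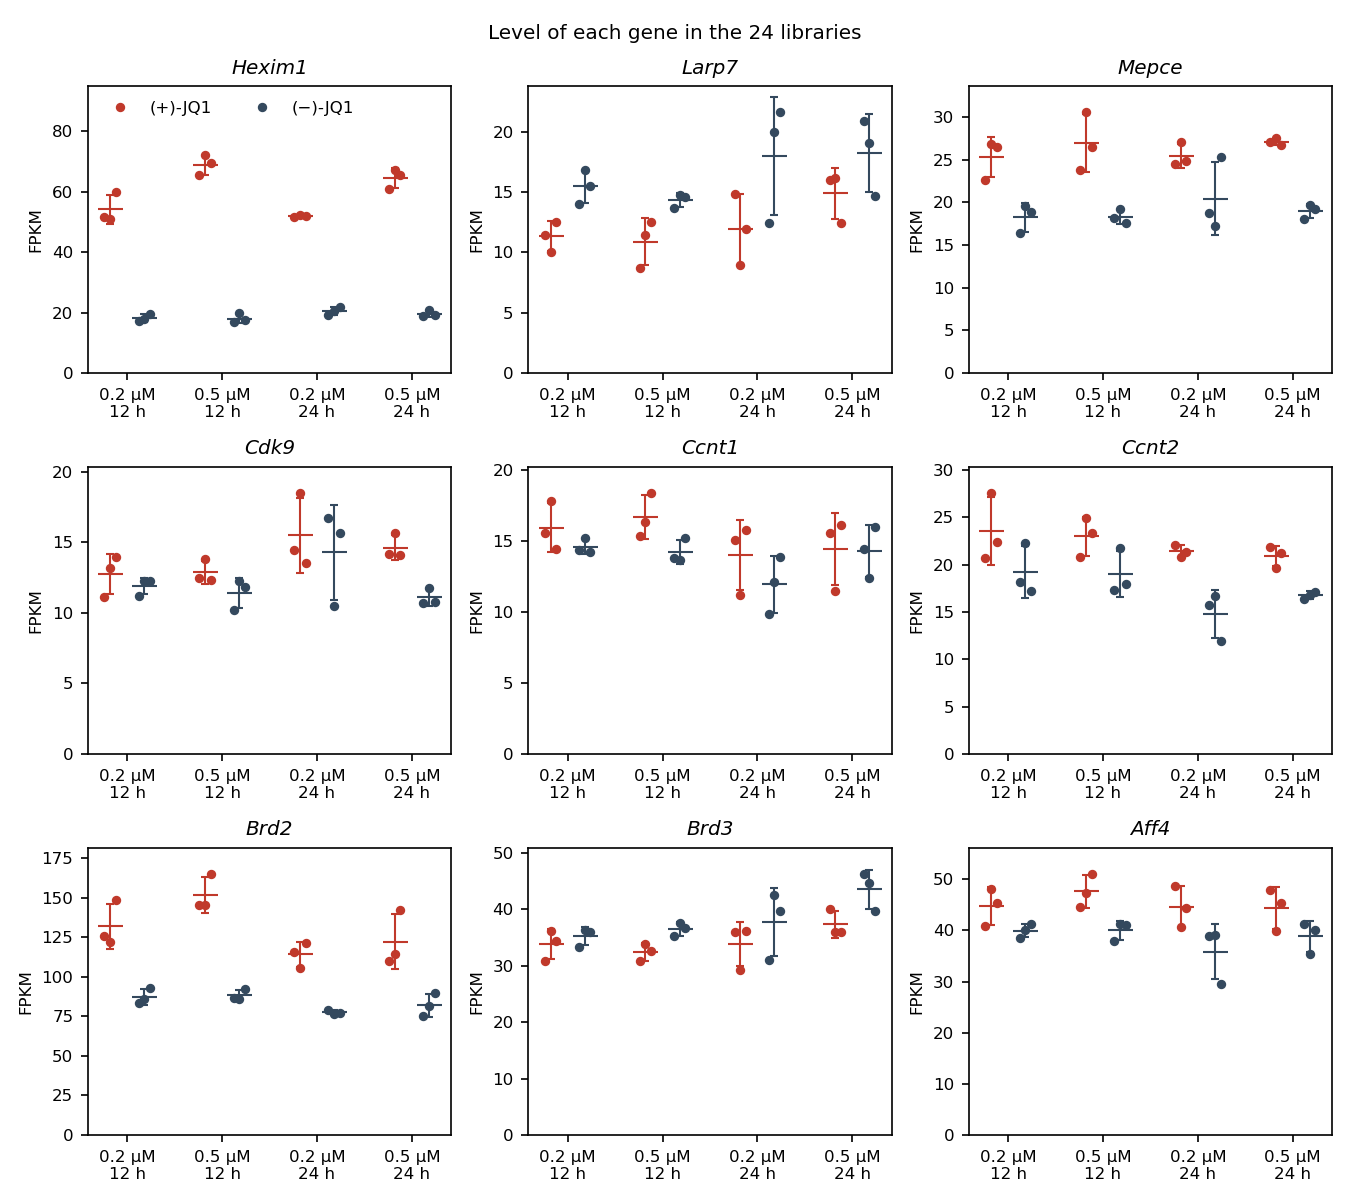
Level of each of the 9 genes in FPKM (vertical axis, from 0) by dose and time (horizontal axis), with (+)-JQ1 libraries in red left of (-)-JQ1 libraries in dark grey. Points are the 3 libraries of a group, and bars are their mean ± SD; the red and grey points of Hexim1 and of Brd2 are apart in all 4 conditions.

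Hexim1, whose protein binds 7SK RNA and then inhibits CDK9, is on chromosome 11, and its promoter is shown first because this gene changed most. The sequence below, from RefSeq's mouse assembly GRCm38.p6, is chr11:103116075-103116230 on the plus strand, the 156 bases that end where GENCODE's annotation of the same assembly starts the first exon. Capitals mark a CCAAT box read on the reverse strand (ATTGG), a GC box (GGGCGG) and the letters TATATAA.
Hexim1: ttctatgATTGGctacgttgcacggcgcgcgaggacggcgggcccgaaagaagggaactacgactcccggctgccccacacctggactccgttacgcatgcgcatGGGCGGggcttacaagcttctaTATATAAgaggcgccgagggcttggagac
Searched on both strands, TATATAA was found in 1.67% of 32851 RefSeq mouse promoters, CCAAT in 20.9% and GGGCGG in 17.5%. The E-box CACGTG was not in the Hexim1 stretch, and it was found in 3.03% of the promoters. These shares are over the first 156 of the 250 bases before RefSeq's start, so they leave out the bases nearest that start. The Hexim1 stretch ends at an exon start, so the shares are not matched to it in position. Over all 250 bases, TATATAA was found in 3.04%, CCAAT in 33.8% and GGGCGG in 32.7%. These matches describe the sequence and say nothing of which factors bind it.

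At 12 h, Hexim1 stood at 51.6, 51.1 and 59.8 FPKM with 0.2 µM (+)-JQ1, against 17.2, 17.8 and 19.5 FPKM with 0.2 µM (-)-JQ1. With 0.5 µM it stood at 65.4, 72.1 and 69.4 FPKM in (+)-JQ1 libraries, against 16.8, 19.8 and 17.5 FPKM in (-)-JQ1 libraries. The lowest (+)-JQ1 library was above the highest (-)-JQ1 library by a wide margin at both doses. At 24 h the values were 51.7, 52.2 and 52.0 FPKM with 0.2 µM (+)-JQ1, against 19.3, 20.4 and 21.8 FPKM with 0.2 µM (-)-JQ1. They were 60.8, 67.2 and 65.5 FPKM with 0.5 µM (+)-JQ1, against 18.9, 20.8 and 19.2 FPKM with 0.5 µM (-)-JQ1. All 12 (+)-JQ1 libraries were above all 12 (-)-JQ1 libraries. Groups that stood apart were common in these data: with 3 libraries a side, all (+)-JQ1 values were above all (-)-JQ1 values in 16.8% of genes tested at 0.2 µM and 20.7% at 0.5 µM after 12 h, and in 11.7% and 18.7% after 24 h. All were below in 30.2% and 37.5% after 12 h, and in 22.3% and 29.4% after 24 h, the lower dose first. These shares are the background for each separation of groups given below. The ratio of mean FPKM was 2.98 at 0.2 µM and 3.82 at 0.5 µM after 12 h, and 2.53 at 0.2 µM and 3.29 at 0.5 µM after 24 h. On the log2(FPKM + 1) scale used for every test, the differences were 1.52 (95% interval 1.34 to 1.70) and 1.88 (1.70 to 2.06) at 12 h, and 1.30 (1.12 to 1.48) and 1.67 (1.49 to 1.85) at 24 h, the lower dose first, each with a standard error of 0.09. The adjusted p in limma was 5.04e-11, 1.02e-12, 3.23e-10 and 3.18e-12 in the same order. Without the libraries high in Mir5105, the difference at 0.2 µM and 24 h was 1.26 (adjusted p = 3.89e-08 in limma). Averaged over doses and times the difference was 1.59 ± 0.04 (SE), with an adjusted p of 1.25e-17 in limma.

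Within (+)-JQ1, Hexim1 had higher values at 0.5 than at 0.2 µM. The 3 libraries of the higher dose were all above the 3 of the lower dose at 12 h and again at 24 h, a separation upward seen in 5.17% of genes at 12 h and 3.81% at 24 h. The log2 difference between doses was 0.35 (95% interval 0.17 to 0.52) at 12 h, with an adjusted p of 0.0779 in limma, and 0.31 (0.13 to 0.49) at 24 h, with an adjusted p of 0.0721. Neither passed the threshold, and no other member did at either time, where 0.645% of all genes were called at 12 h and 2.15% at 24 h. Before adjustment, Hexim1 was the 1 member with p under 0.05 in limma at each time. With library weights both passed, with adjusted p of 0.0103 at 12 h and 0.0364 at 24 h in limma. Both also passed with a block for replicate number, a pairing that the labels do not state (adjusted p = 0.0411 and 0.044 in limma). With libraries scaled by the median of ratios, the 24 h difference passed with an adjusted p of 0.0303. The difference between doses did not pass in 11 of 13 alternatives at 12 h and 10 of 13 at 24 h. The adjusted p there reached 0.33 at 12 h and 0.244 at 24 h in limma. Within (-)-JQ1 the same difference between doses was -0.01 (-0.19 to 0.17) at 12 h and -0.06 (-0.24 to 0.12) at 24 h, where 0% and 0.00725% of all genes were called. No member was called there, and before adjustment 0 members at 12 h and 1 at 24 h (Cdk9, with a log2 difference of -0.32) had p under 0.05 in limma. The test of whether the effect of (+) over (-)-JQ1 itself differed between doses gave Hexim1 a log2 difference of 0.36 (0.10 to 0.61) at 12 h and 0.37 (0.11 to 0.62) at 24 h. Neither was called after adjustment over all genes (adjusted p = 1.00 at 12 h and 0.44 at 24 h in limma), and 0.0435% and 0.29% of genes were called in these tests. No other member was called, and Hexim1 was the 1 member with an unadjusted p under 0.05 in limma at each time. None of 19 alternatives at each time called this difference in effect for Hexim1.

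Between times, Hexim1 had small differences that were not called. In (+)-JQ1 the log2 difference of 24 over 12 h was -0.06 (95% interval -0.24 to 0.12) at 0.2 µM and -0.09 (-0.27 to 0.09) at 0.5 µM. No member was called between times in (+)-JQ1, where 3.3% of genes at 0.2 µM and 4.21% at 0.5 µM were called. Within (-)-JQ1, over both doses, it was 0.14 (0.02 to 0.27), with an adjusted p of 0.12 in limma. In (+)-JQ1, before adjustment, 0 members at 0.2 µM and 2 at 0.5 µM (Brd2 and Larp7) had p under 0.05 in limma. The effect of (+) over (-)-JQ1 on Hexim1 was lower at 24 than at 12 h by a log2 value of -0.22 (-0.48 to 0.03) at 0.2 µM and -0.21 (-0.47 to 0.04) at 0.5 µM, neither of which was called. No member was called in these tests of the effect between times, where 0.0217% and 0.326% of genes were, and 0 members had an unadjusted p under 0.05 in limma at either dose. Ranked by mean level, the 0.5 µM (+)-JQ1 groups at 12 and 24 h came first and overlapped each other. The 0.2 µM (+)-JQ1 groups at 12 and 24 h followed, also overlapping each other, and the 4 (-)-JQ1 groups came last with overlapping ranges.

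Mepce and Larp7, the other protein genes of the 7SK complex, went in opposite directions. Mepce encodes the enzyme that caps 7SK RNA and stays bound to it. At 12 h it stood at 22.6, 26.9 and 26.5 FPKM with 0.2 µM (+)-JQ1, against 16.4, 19.6 and 18.9 with (-)-JQ1, and at 23.9, 30.6 and 26.5 FPKM with 0.5 µM (+)-JQ1, against 18.1, 19.3 and 17.6 with (-)-JQ1. At 24 h it stood at 24.5, 27.1 and 24.8 FPKM with 0.2 µM (+)-JQ1, against 18.7, 17.3 and 25.3 with (-)-JQ1, and at 27.1, 27.6 and 26.7 FPKM with 0.5 µM (+)-JQ1, against 18.1, 19.7 and 19.2 with (-)-JQ1. The groups did not overlap except at 0.2 µM and 24 h, where replicate 3 of (-)-JQ1 reached the (+)-JQ1 values. The log2 difference was 0.45 ± 0.12 and 0.53 ± 0.12 (SE) at 12 h for the lower and the higher dose, with adjusted p of 0.00596 and 0.00105 in limma. It was 0.32 ± 0.12 at 24 h and 0.2 µM (adjusted p = 0.0384 in limma) and 0.49 ± 0.12 at 24 h and 0.5 µM (adjusted p = 0.00196). The call at 0.2 µM and 24 h was lost without the pair of libraries high in Mir5105, where the difference was 0.23 with an adjusted p of 0.224 in limma, and without any 1 of 5 of its 6 libraries. The other 3 calls held in every alternative tried.

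Larp7 encodes the La-related protein that binds the end of 7SK RNA and keeps it stable. At 12 h it stood at 11.4, 10.0 and 12.5 FPKM with 0.2 µM (+)-JQ1, against 14.04, 16.8 and 15.5 with (-)-JQ1, and at 8.71, 11.4 and 12.5 FPKM with 0.5 µM (+)-JQ1, against 13.7, 14.8 and 14.6 with (-)-JQ1. At 24 h it stood at 14.9, 8.98 and 11.9 FPKM with 0.2 µM (+)-JQ1, against 12.4, 19.95 and 21.6 with (-)-JQ1, and at 16.04, 16.2 and 12.5 FPKM with 0.5 µM (+)-JQ1, against 20.9, 19.1 and 14.7 with (-)-JQ1. All (+)-JQ1 libraries were below all (-)-JQ1 libraries at both doses of 12 h, and the groups overlapped at both doses of 24 h. A separation downward was seen in 30.2% of all genes at 0.2 µM and 37.5% at 0.5 µM after 12 h. The log2 difference was -0.42 (95% interval -0.80 to -0.03) and -0.38 (-0.77 to 0.01) at 12 h for the lower and the higher dose, neither called. At 24 h it was -0.55 (-0.93 to -0.16) at 0.2 µM, with an adjusted p of 0.0287 in limma, and -0.27 (-0.66 to 0.12) at 0.5 µM, not called. Averaged over all conditions Larp7 fell by 0.40 ± 0.09 (SE) on the log2 scale, with an adjusted p of 0.000739 in limma. Each of the libraries high in Mir5105 had the lowest Larp7 value of its group, and without them the difference at 0.2 µM and 24 h was -0.60 (adjusted p = 0.0114 in limma). The single call at 0.2 µM and 24 h was lost without either replicate 2 or 3 of either enantiomer, with adjusted p between 0.0588 and 0.154 in limma, and with median-of-ratios scaling (adjusted p = 0.0601). It was also lost with library weights (adjusted p = 0.103) and on the 6 libraries compared alone (adjusted p = 0.188). The 12 h differences were called (adjusted p = 0.0273 and 0.033) once the high Mir5105 libraries were left out of the shared spread. They were also called with library weights (adjusted p = 0.0119 and 0.0192) and on the 6 libraries compared alone (adjusted p = 0.0136 and 0.0304). No other alternative called them. RefSeq places the genes of the miR-302 and miR-367 cluster within Larp7, and those listed in the files were at 0 in every library.

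**Figure D2:**
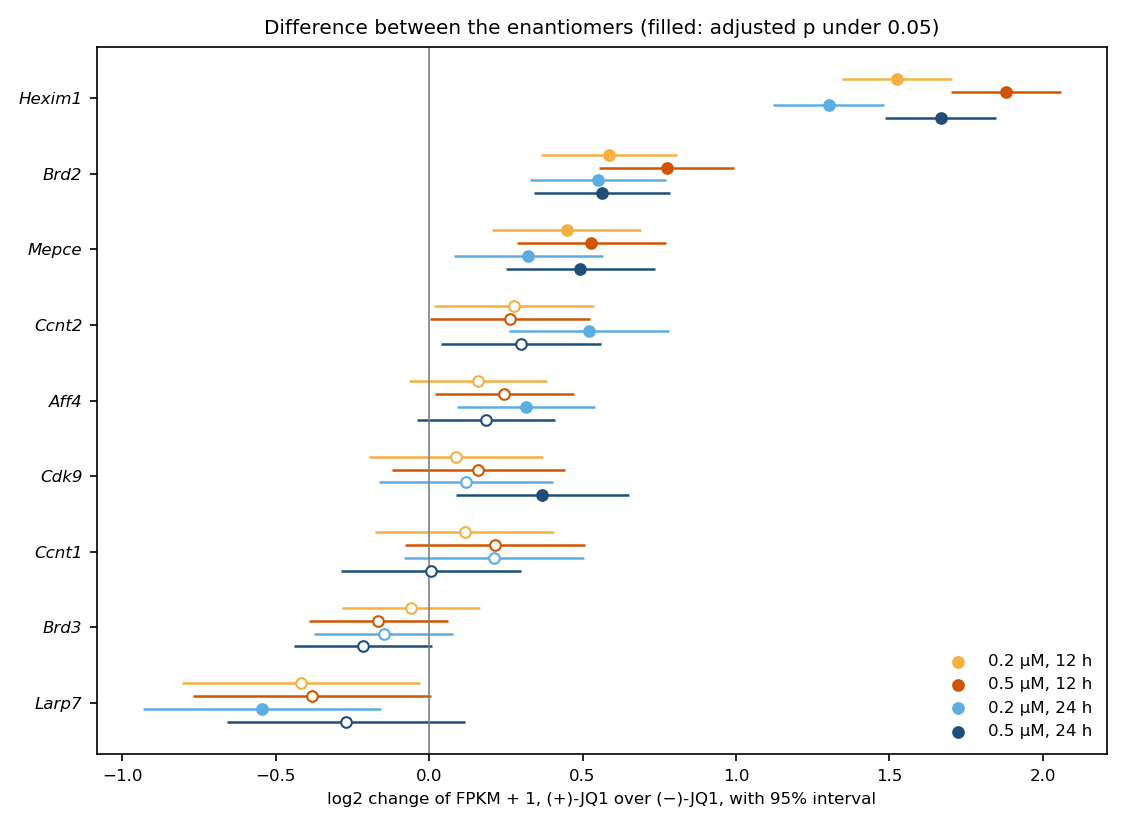
Difference of (+)-JQ1 over (-)-JQ1 for each gene as log2 change of FPKM + 1 (horizontal axis), in 4 colours for the dose and time, with 95% intervals. Filled points passed an adjusted p under 0.05; Hexim1 lies between 1.30 and 1.88, Brd2 between 0.55 and 0.77, and Larp7 between -0.55 and -0.27.

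Among the subunits of P-TEFb, the changes were small beside that of Hexim1. Cdk9, the catalytic kinase, ranged from 11.2 to 18.5 FPKM over the 12 (+)-JQ1 libraries and from 10.2 to 16.8 over the 12 (-)-JQ1 libraries. After 24 h with 0.5 µM it stood at 14.1, 15.6 and 14.1 FPKM with (+)-JQ1, against 10.7, 11.8 and 10.8 with (-)-JQ1, with no overlap. This was its only called difference, 0.37 ± 0.14 (SE) on the log2 scale with an adjusted p of 0.0363 in limma, and leaving out any 1 of 5 of the 6 libraries compared raised it to between 0.0552 and 0.119. With 0.5 µM for 12 h the values were 12.5, 13.8 and 12.4 FPKM with (+)-JQ1, against 10.2, 12.3 and 11.8 with (-)-JQ1, apart by a narrow margin and not called. With 0.2 µM for 24 h they were 14.5, 18.5 and 13.5 FPKM with (+)-JQ1, against 16.8, 10.5 and 15.7 with (-)-JQ1. The 18.5 and the 16.8 FPKM there are the highest of all 24 libraries and belong to the pair high in Mir5105, and the log2 difference of 0.12 was 0.11 without them (adjusted p = 0.564 in limma).

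Ccnt2 and Ccnt1 encode cyclins T2 and T1, either of which can partner CDK9. The promoter of Ccnt2 is shown for comparison with that of Hexim1, as a member whose change was smaller. It is the 250 bases before RefSeq's start on the plus strand of GRCm38.p6, chr1:127773914-127774163, with CCAAT boxes of either strand (CCAAT or ATTGG) and GC boxes (GGGCGG) in capitals.
Ccnt2: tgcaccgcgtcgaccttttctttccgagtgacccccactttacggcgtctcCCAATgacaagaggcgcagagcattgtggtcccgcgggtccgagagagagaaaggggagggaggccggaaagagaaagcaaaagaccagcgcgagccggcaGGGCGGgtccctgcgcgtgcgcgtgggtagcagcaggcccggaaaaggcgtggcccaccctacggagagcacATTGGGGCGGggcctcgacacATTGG
It holds 3 CCAAT matches and 2 GGGCGG matches, of which 1 of each kind overlap, and no TATATAA or CACGTG. Over 250 bases, 33.8% of the 32851 promoters held CCAAT, 32.7% GGGCGG, 6.02% CACGTG and 3.04% TATATAA. Of the 9 members, 8 were matched in the promoter table, and Mepce was not.

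Ccnt2 had higher values with (+)-JQ1 in all conditions, and the difference was called at 0.2 µM and 24 h. There it stood at 22.1, 20.8 and 21.3 FPKM with (+)-JQ1, against 15.8, 16.6 and 11.9 with (-)-JQ1, a log2 difference of 0.52 ± 0.13 (SE) with an adjusted p of 0.00295 in limma. Without the libraries high in Mir5105 it was 0.59 (adjusted p = 0.00687). With 0.5 µM for 24 h it stood at 21.8, 19.7 and 21.2 FPKM with (+)-JQ1, against 16.4, 16.9 and 17.1 with (-)-JQ1. The groups were apart at both doses of 24 h. At 12 h they overlapped, with 20.7, 27.6 and 22.4 FPKM at 0.2 µM and 20.8, 24.9 and 23.4 at 0.5 µM with (+)-JQ1, against 18.2, 22.3 and 17.2 at 0.2 µM and 17.3, 21.8 and 17.97 at 0.5 µM with (-)-JQ1. Replicate 2 had the highest value of its group in all 4 of these 12 h groups. The 3 differences not called were 0.28 (95% interval 0.02 to 0.54), 0.26 (0.00 to 0.53) and 0.30 (0.04 to 0.56), and with median-of-ratios scaling each of them was called, with adjusted p of 0.0362, 0.0204 and 0.0184 in limma. Averaged over all conditions Ccnt2 was higher by 0.34 ± 0.06 (SE), with an adjusted p of 7.33e-05 in limma.

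Ccnt2 was also the only member called between times within (-)-JQ1, where 15.6% of all genes were called and 4.62% were lower at 24 than at 12 h. Over both doses its log2 difference of 24 over 12 h was -0.26 (95% interval -0.45 to -0.08), with an adjusted p of 0.0472 in limma. The call was lost in 10 of 19 alternatives. They included no filter on low values (adjusted p = 0.0616 in limma) and no trend and robust settings (adjusted p = 0.0521). The others each left out 1 library, with adjusted p between 0.0506 and 0.137.

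Ccnt1 showed no called difference at any dose and time. It ranged from 11.2 to 18.4 FPKM with (+)-JQ1 and from 9.88 to 16.04 FPKM with (-)-JQ1. Both of these lowest values, which are also the lowest of all 24, belong to the libraries high in Mir5105, and without them the difference at 0.2 µM and 24 h was 0.23 (adjusted p = 0.217 in limma). Its log2 differences were 0.12 (95% interval -0.18 to 0.41), 0.21 (-0.08 to 0.51), 0.21 (-0.08 to 0.51) and 0.01 (-0.29 to 0.30), in the order of 0.2 and 0.5 µM at 12 h and 0.2 and 0.5 µM at 24 h. The groups were apart at 0.5 µM and 12 h, with 15.4, 16.3 and 18.4 FPKM with (+)-JQ1, against 13.8, 13.7 and 15.2 with (-)-JQ1. The average over conditions, 0.14 (-0.01 to 0.28), was not called as tested (adjusted p = 0.099 in limma), and with median-of-ratios scaling it was 0.22 with an adjusted p of 0.0153. RefSeq places the noncoding gene 9330020H09Rik over Ccnt1, listed at 0.174 to 1.19 FPKM, and no source used here says whether counting used strand.

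The BET gene Brd2 was the most abundant member, with a mean of 107 FPKM over the 24 libraries, above 95.1% of the genes tested. At 12 h it stood at 126, 122 and 148 FPKM with 0.2 µM (+)-JQ1, against 83.4, 85.9 and 93.2 with (-)-JQ1, and at 145, 145 and 165 FPKM with 0.5 µM (+)-JQ1, against 86.4, 86.0 and 92.5 with (-)-JQ1. At 24 h it stood at 116, 106 and 121 FPKM with 0.2 µM (+)-JQ1, against 79.1, 76.3 and 77.2 with (-)-JQ1, and at 110, 114 and 142 FPKM with 0.5 µM (+)-JQ1, against 75.2, 81.5 and 89.5 with (-)-JQ1. All 12 (+)-JQ1 libraries were above all 12 (-)-JQ1 libraries. The log2 difference was 0.59 ± 0.11 and 0.77 ± 0.11 (SE) at 12 h for the lower and the higher dose, and 0.55 ± 0.11 and 0.56 ± 0.11 at 24 h. The adjusted p in limma was 0.000244, 5.76e-06, 0.00041 and 0.000222 in the same order, and all 4 calls held in every alternative tried. At 0.2 µM and 24 h the difference was 0.62 without the libraries high in Mir5105 (adjusted p = 0.000985 in limma). Within (+)-JQ1 at 0.5 µM, Brd2 at 24 h stood below its 12 h level by a log2 difference of -0.32 (95% interval -0.54 to -0.10), which was not called (adjusted p = 0.0916 in limma). RefSeq places H2-DMa over a stretch of Brd2, and that gene was listed at 2.96 to 10.0 FPKM.

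Brd3, the other BET gene of the set, did not follow Brd2. At 0.5 µM it stood at 30.8, 33.9 and 32.6 FPKM at 12 h with (+)-JQ1, against 35.2, 37.7 and 36.6 with (-)-JQ1, and at 40.1, 36.0 and 36.0 FPKM at 24 h with (+)-JQ1, against 46.3, 44.7 and 39.7 with (-)-JQ1. At 0.2 µM it stood at 30.9, 36.1 and 34.5 FPKM at 12 h with (+)-JQ1, against 33.4, 36.3 and 36.0 with (-)-JQ1, and at 36.1, 29.3 and 36.2 FPKM at 24 h with (+)-JQ1, against 31.1, 42.6 and 39.8 with (-)-JQ1. The groups were apart only at 0.5 µM and 12 h. The lowest values of the 0.2 µM groups at 24 h, 29.3 FPKM with (+)-JQ1 and 31.1 with (-)-JQ1, are those of the libraries high in Mir5105. No single comparison was called, with log2 differences of -0.06 (95% interval -0.28 to 0.17), -0.17 (-0.39 to 0.06), -0.15 (-0.37 to 0.08) and -0.22 (-0.44 to 0.01), at 12 h and then 24 h with the lower dose first. Without the libraries high in Mir5105, the difference at 0.2 µM and 24 h was -0.18 (adjusted p = 0.159 in limma) and that at 0.5 µM and 24 h was called at the same -0.22 (adjusted p = 0.0347). With library weights the 0.5 µM comparison was also called, at -0.25 (adjusted p = 0.0224), and without replicate 1 of (-)-JQ1 alone the difference at 0.2 µM and 24 h was called at -0.28 (adjusted p = 0.0395). Averaged over conditions Brd3 fell by 0.15 ± 0.05 (SE) on the log2 scale, with an adjusted p of 0.0233 in limma. With median-of-ratios scaling that average was -0.06 with an adjusted p of 0.404, and the difference at 0.2 µM and 12 h turned to 0.02. That scaling raised the median log2 change of all genes by up to 0.0962 in these comparisons.

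Aff4 averaged 42.0 FPKM over the 24 libraries. At 0.2 µM and 24 h it stood at 48.7, 40.7 and 44.5 FPKM with (+)-JQ1, against 38.9, 39.1 and 29.6 with (-)-JQ1. The groups were apart there by a narrow margin, and the log2 difference was 0.32 ± 0.11 (SE) with an adjusted p of 0.0304 in limma. Without the libraries high in Mir5105 it was 0.44 (adjusted p = 0.0112). Leaving out replicate 3 of (-)-JQ1 moved it to 0.19 with an adjusted p of 0.2 in limma, leaving out replicate 1 of (+)-JQ1 to 0.25 with an adjusted p of 0.126, and leaving out replicate 3 of (+)-JQ1 to 0.32 with an adjusted p of 0.0673. On the 6 libraries compared alone the call was also lost (adjusted p = 0.258 in limma). The groups were also apart at 0.5 µM and 12 h, with 44.6, 47.3 and 51.0 FPKM with (+)-JQ1, against 37.8, 41.2 and 40.97 with (-)-JQ1, and the log2 difference of 0.24 (95% interval 0.02 to 0.47) was not called. It was called with median-of-ratios scaling (0.36, adjusted p = 0.00954 in limma), with library weights (adjusted p = 0.01) and on the 6 libraries compared alone (adjusted p = 0.0253). In 11 of 14 alternatives it was not called. The other differences were 0.16 (-0.07 to 0.39) at 0.2 µM and 12 h and 0.19 (-0.04 to 0.41) at 0.5 µM and 24 h. The latter was called with median-of-ratios scaling alone (0.27, adjusted p = 0.0463 in limma). Averaged over conditions Aff4 was higher by 0.23 ± 0.05 (SE), with an adjusted p of 0.00108 in limma.

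Ratios of 2 members within a library do not depend on how the library was scaled. The 4 pairs were chosen after the values were seen, so the ratios are a description. A test run on each is not used here for that reason. Hexim1 stood at 4.27 ± 0.37 times the FPKM of Cdk9 with 0.2 µM (+)-JQ1 at 12 h (SD, n = 3), against 1.53 ± 0.07 times with (-)-JQ1. At 0.5 µM and 12 h the ratio was 5.36 ± 0.22 with (+)-JQ1, against 1.58 ± 0.09 with (-)-JQ1, and at 0.5 µM and 24 h it was 4.42 ± 0.20 with (+)-JQ1, against 1.77 ± 0.01 with (-)-JQ1. At 0.2 µM and 24 h it was 3.41 ± 0.53 with (+)-JQ1, against 1.496 ± 0.408 with (-)-JQ1, the widest spread of the 4 conditions in either enantiomer, in the groups with the high Mir5105 libraries. The inhibitor's RNA was thus in larger excess over that of its kinase with (+)-JQ1 in every condition, 2.72-fold on average. The ratio of Mepce to Larp7 was 1.87-fold higher with (+)-JQ1 and that of Brd2 to Brd3 was 1.71-fold higher. In FPKM, Mepce was 2.25 ± 0.37 times Larp7 with (+)-JQ1 at 0.2 µM and 12 h, against 1.18 ± 0.03 times with (-)-JQ1. Brd2 was 3.92 ± 0.48 times Brd3 with (+)-JQ1 in that condition, against 2.48 ± 0.11 times with (-)-JQ1. The ratio of Ccnt2 to Ccnt1 was 1.16-fold higher with (+)-JQ1. Without the libraries high in Mir5105 the 4 folds were 2.70 for Hexim1 over Cdk9, 1.86 for Mepce over Larp7, 1.74 for Brd2 over Brd3 and 1.17 for Ccnt2 over Ccnt1.

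**Figure D3:**
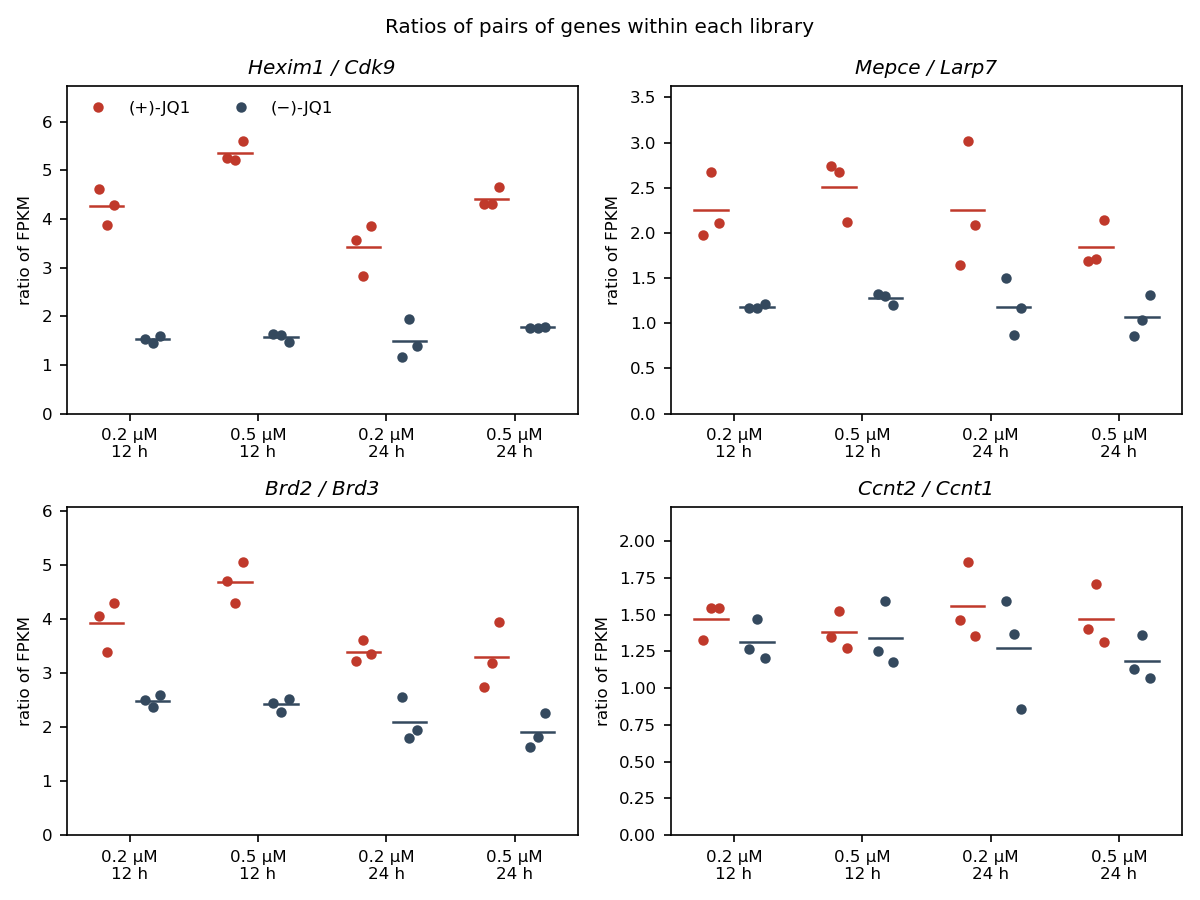
Ratio of the FPKM of 2 genes within each library (vertical axis, from 0) by dose and time (horizontal axis), with (+)-JQ1 libraries in red left of (-)-JQ1 libraries in dark grey. Points are libraries and lines are group means; the ratio of Hexim1 to Cdk9 lies between 2.82 and 5.61 with (+)-JQ1 and between 1.15 and 1.95 with (-)-JQ1.

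Across the 24 libraries, log2(FPKM + 1) of Brd2 followed that of Hexim1 most closely among the members (Pearson r = 0.911), and so did that of Mepce (r = 0.906). Ccnt2 and Aff4 were each other's closest member (r = 0.855), as were Brd3 and Larp7 (r = 0.832). Cdk9 was closest to Mepce (r = 0.640) and Ccnt1 to Aff4 (r = 0.564). These correlations are descriptions over libraries that share 8 treatments. None was taken within an enantiomer, so the part of the enantiomer in them was not tested. Nor was any taken without the libraries high in Mir5105, where Brd3 and Larp7 each had the lowest value of its group. Among all genes with a mean of at least 5 FPKM, the 5 with the pattern most like that of Hexim1 were Aplp2 (r = 0.992), Habp4 (r = 0.990), H2afx (r = 0.986), Gm6485 (r = 0.985) and Ulk2 (r = 0.982). Aplp2, which encodes a relative of the amyloid precursor protein, averaged 310 ± 5 FPKM with 0.5 µM (+)-JQ1 at 12 h (SD, n = 3), against 126 ± 3 FPKM with (-)-JQ1. H2afx, the gene of the histone variant that is phosphorylated at DNA breaks, averaged 93.9 ± 6.5 FPKM in the same (+)-JQ1 group, against 25.9 ± 1.9 FPKM in the (-)-JQ1 group. Habp4, the gene of a hyaluronan- and RNA-binding protein, averaged 36.4 ± 3.0 FPKM with (+)-JQ1 there, against 10.7 ± 1.0 FPKM with (-)-JQ1. Ulk2, a kinase of autophagy initiation, averaged 52.2 ± 0.7 FPKM with (+)-JQ1, against 23.5 ± 0.5 FPKM with (-)-JQ1. Like Hexim1, each of these had a higher mean at 0.5 than at 0.2 µM within (+)-JQ1 at both times, a pattern the choice by correlation favours.

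The other genes of transcription elongation were read from 5 lists with 42 genes, of which 41 were tested. Of the 41, 3 were called higher and 7 called lower with (+)-JQ1 at 0.2 µM and 12 h, and 9 called higher and 11 called lower at 0.5 µM and 12 h. After 24 h, 2 were called higher and 6 called lower at 0.2 µM, and 4 called higher and 8 called lower at 0.5 µM. Over all genes, the shares called higher and lower were 8.23% and 19.6%, 12.2% and 26.1%, 11% and 21.8%, and 13.7% and 24.5% in the same order. The median log2 change of the 41 was -0.02, 0.01, -0.07 and 0.04 in that order, near the medians of all genes given above. With median-of-ratios scaling the split was 9 higher and 6 lower, 13 and 10, 8 and 5, and 8 and 6 in the same order of conditions. That scaling raised the median log2 change of all genes by 0.071, 0.0962, 0.0785 and 0.0703 in that order. The shares of all genes called with it were not taken, so these counts cannot be set against the shares above.

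Of 9 other 7SK and P-TEFb partners, 4 were called lower and 0 higher at 0.5 µM and 24 h, where 24.5% of all genes were lower and 13.7% higher. No member of the list had a positive difference with an unadjusted p under 0.05 in limma. Hexim2, the paralog that can take the place of Hexim1 in the 7SK complex, averaged 0.43 ± 0.36 FPKM with (+)-JQ1 (SD, n = 3), against 1.251 ± 0.270 FPKM with (-)-JQ1. It reached the 1 FPKM needed to be tested in (-)-JQ1 libraries alone, so the filter favoured lower values in (+)-JQ1, and its call, 1 of the 4, is no support for a difference. In (-)-JQ1 libraries of that dose and time Hexim1 averaged 19.6 FPKM, so Hexim2 was the minor paralog in RNA per length. Hnrnpa1, an RNA-binding protein that binds 7SK freed of P-TEFb, averaged 219 ± 7 FPKM with (+)-JQ1, against 385 ± 27 FPKM with (-)-JQ1, and was called lower in all 4 comparisons. The 7SK RNA gene Rn7sk has no poly(A) tail and these libraries were selected for poly(A), so its value is not its level in the cell.

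Among the 9 tested genes of the AF4 family and super elongation complex, 2 were higher and 1 lower at 0.5 µM and 24 h, to be read against the shares of all genes just given. Mllt3, the AF9 subunit, averaged 13.4 ± 1.2 FPKM with (+)-JQ1, against 9.12 ± 1.09 FPKM with (-)-JQ1, a log2 difference of 0.51 ± 0.15 (SE) with an adjusted p of 0.0101 in limma. Ell2, an elongation factor subunit, averaged 8.71 ± 0.35 FPKM with (+)-JQ1 there, against 11.8 ± 0.5 FPKM with (-)-JQ1, with an adjusted p of 0.00524 in limma. After 12 h at 0.5 µM Ell2 went the other way and was called higher, at 10.9 ± 0.3 FPKM with (+)-JQ1, against 8.30 ± 0.36 FPKM with (-)-JQ1 (adjusted p = 0.011 in limma). Of 6 genes of other transcription kinases, their cyclins and an assembly factor, 1 was higher and 2 lower at 0.5 µM and 24 h. Cdk13, a kinase that phosphorylates the polymerase during elongation, averaged 23.6 ± 1.5 FPKM with (+)-JQ1, against 16.6 ± 2.0 FPKM with (-)-JQ1, and was called higher in all 4 comparisons. Mnat1, the assembly factor of the CDK7 kinase, averaged 9.003 ± 2.702 FPKM with (+)-JQ1, against 13.2 ± 3.8 FPKM with (-)-JQ1, with an adjusted p of 0.0325 in limma. Of 11 genes of the PAF complex and elongation chaperones, 1 was higher and 1 lower. The PAF subunit gene Ctr9 averaged 49.5 ± 8.8 FPKM with (+)-JQ1, against 36.9 ± 6.4 FPKM with (-)-JQ1 (adjusted p = 0.0278 in limma). Ssrp1, a subunit of the histone chaperone FACT, averaged 54.6 ± 5.1 FPKM with (+)-JQ1, against 81.8 ± 7.8 FPKM with (-)-JQ1, and was called lower in all 4 comparisons. None of the 6 pausing factor genes was called at 24 h at either dose, where 2 at 0.2 µM and 1 at 0.5 µM had an unadjusted p under 0.05 in limma, and 2 were lower at each dose of 12 h.

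**Figure D4:**
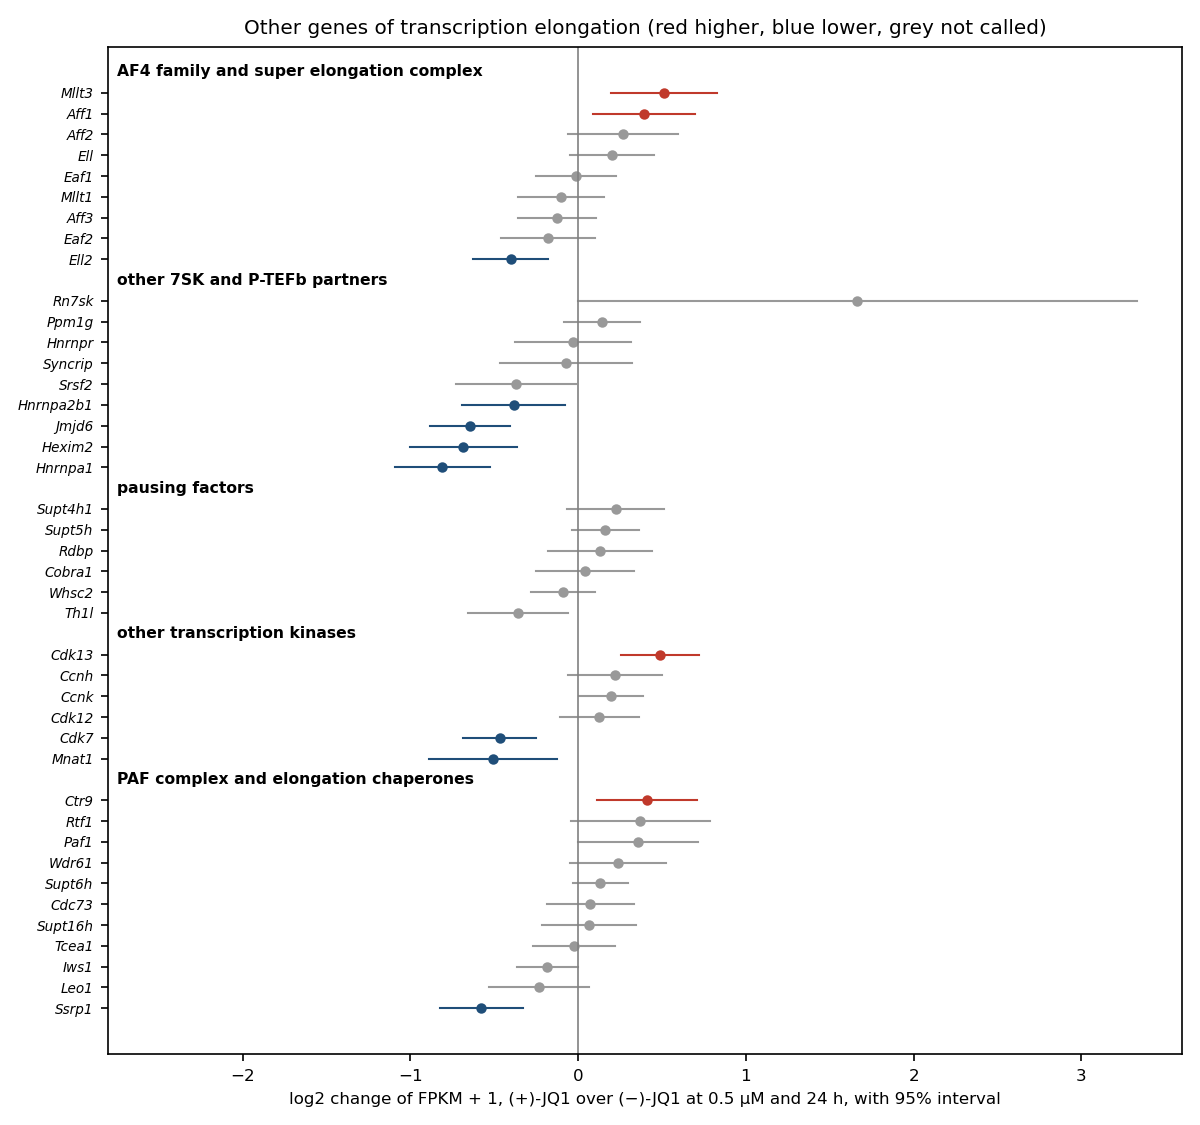
Difference of (+)-JQ1 over (-)-JQ1 at 0.5 µM and 24 h for 41 other genes of transcription elongation, as log2 change of FPKM + 1 with 95% intervals (horizontal axis), by list and ordered by value within a list. Red genes were called higher (4), blue genes lower (8), and grey genes were not called.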

How the data were processed

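Poly(A)-selected RNA from 24 cultures was sequenced as single-end 50-base reads, per the labels' protocols. Read quality was assessed in FastQC and TopHat2 aligned the reads to mm9, per the submitters' processing notes. FPKM for each gene symbol were made and deposited by the authors; the program, annotation, strand setting and any scaling are not given in the sources used here, and depth is unknown. Of 26694 entries per file, 58 of 29 repeated symbols were left out. Genes that reached 1 FPKM in 3 or more libraries were tested as log2(FPKM + 1), which understates the change of low genes, in limma 3.58.1 (R 4.3.3) with 1 mean per group, 16 residual degrees of freedom, trend and robust settings, and Benjamini-Hochberg adjustment over the 13801 genes tested, tried on simulated data first. There were 15 comparisons and an added average. Intervals are at 95% and not adjusted.

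The members and lists were chosen with earlier results of these data known. The text names all members, the 2 called genes with the largest change of each list at 0.5 µM and 24 h, and the 5 genes most correlated with Hexim1, plus Rn7sk. Replicate numbers were not taken to pair samples, since the labels do not say that they mark shared preparations. Of 12 same-numbered pairs in the 4 main comparisons, 7 had deviations from the group means that correlated over 0.1. At 0.2 µM these correlations were 0.105, 0.133 and 0.112 at 12 h, and -0.196, -0.345 and -0.00381 at 24 h. At 0.5 µM they were -0.0227, 0.358 and 0.179 at 12 h, and 0.0458, 0.166 and 0.292 at 24 h. The spread is that between independent preparations. No 2 libraries were identical.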

Additional observations from a re-analysis of the deposited data

How the results depend on the processing

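Each comparison was repeated with a pseudocount of 0.1, no filter on low values, median-of-ratios scaling, a replicate block, without both libraries high in Mir5105, without trend and robust settings, with library weights, on the 6 libraries compared alone, and without each library in turn. Of 866 member values, 791 kept their direction and side of the threshold, 36 lost a call, 30 gained one and 9 changed sign, none of them a called value. The causes were not tested. The shares of all genes called under these alternatives were not taken, so the counts below have no background. The number of members called in (+) over (-)-JQ1 at 0.5 µM and 12 h was 5 with scaling, 6 with weights and 5 on 6 libraries, and at 0.2 µM and 24 h it was 2 on 6 libraries, which have fewer degrees of freedom. With the replicate block, 1 member was called between doses in (+)-JQ1 at each time (Hexim1, adjusted p = 0.0411 at 12 h and 0.044 at 24 h in limma), 1 between times at 0.5 µM, and 5 rather than 4 at 0.5 µM and 24 h, with Ccnt2 added. Between doses in (+)-JQ1, 1 was called with weights at each time and 1 with scaling at 24 h, and between times at 0.5 µM 2 with weights. Between times in (-)-JQ1 the count was 0 with no filter or without trend, 3 without the libraries high in Mir5105 and 2 with weights. Without 1 library at a time, the counts were 3 to 4 at 12 h at either dose, 3 to 6 at 0.2 µM and 24 h, 3 to 4 at 0.5 µM and 24 h, 8 to 9 in the average, 0 to 3 between times in (-)-JQ1, 0 to 1 between times in (+)-JQ1 at 0.5 µM and 0 to 1 between doses in (-)-JQ1 at 24 h, and 0 in the others. The sign changes were Brd3 at 0.2 µM and 12 h (0.0208 with scaling, and -0.106 to 0.00303 without 1 library at a time), Cdk9 at 0.2 µM and 24 h (-0.000238 with weights, and -0.0741 to 0.241 without 1 library) and Ccnt1 at 0.5 µM and 24 h (-0.031 with weights, and -0.0867 to 0.149 without 1 library). Of the 12 same-numbered pairs, 7 correlated best with their own number, a hint from the data and not the design. Across doses at 12 h, every same-numbered pair within an enantiomer did so too, and at 24 h some did not. Between enantiomers at 0.2 µM and 24 h, none did. The number of elongation genes called higher was 0 to 2, 4 to 10, 1 to 5 and 1 to 3 without 1 library at a time, at 12 h and then 24 h with the lower dose first.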
